A study of Mus musculus with 9 samples.

Results

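Metabotropic glutamate receptors are the G protein-coupled receptors of the excitatory transmitter glutamate. The 6 genes described here, Grm2, Grm3, Grm4, Grm5, Grm7 and Grm8, were taken by symbol from a deposited table of 31804 mouse genes, and all 6 passed the filter on low counts that left 16438 genes for testing. RNA was sequenced from dorsal hippocampus of male C57BL/6NCrl mice, a wild-type inbred strain. At 8 weeks of age the mice received a recombinant adeno-associated virus with 1 of 3 short hairpin RNAs. The groups were shRNA A and shRNA B, different hairpins against the transcription activator gene Camta1, and a control shRNA with no target, and the design text gives 3 animals for each. All groups carried the virus, its mCherry marker and a hairpin. Tissue glowing red was cut out 3 weeks after injection, so the libraries come from dissected tissue and not from sorted cells, and the sources used here do not name the promoter that drives the hairpin.

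Receptors of group I, here Grm5, couple to Gq and phospholipase C and sit mainly around the postsynaptic density, where Homer scaffolds bind them. Group II, Grm2 and Grm3, and group III, Grm4, Grm7, Grm8 and the retinal Grm6, couple to Gi/o proteins and lower cyclic AMP, and many of them act as brakes on transmitter release. In the hippocampus Grm2 is known from dentate granule cells and their mossy fibres, Grm3 from astrocytes as well as neurons, Grm5 from pyramidal cells and Grm7 from release sites.

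The libraries held 29123744 to 38189288 counts each. Levels are given as CPM, scaled counts relative to the library total, and a single read was worth 0.0259 to 0.0339 CPM. Camta1 averaged 220 ± 41.3 CPM with shRNA A, 217 ± 63.3 CPM with shRNA B and 441 ± 14.2 CPM in controls (SD, n = 3 each). With 6 knock-down libraries set against 3 controls, the two-sided exact permutation p was 0.0119, the smallest these numbers allow. Markers fixed for dentate granule cells, CA1 and CA2 and CA3 pyramidal cells were all detected in every library, 27 genes in all with a row in the table. Control replicate 3 stood apart in 8 choroid plexus markers, which summed to 1058 CPM there and to 25.6 to 47.8 CPM in the other libraries. Leaving it out called none of the 6 receptor genes in any comparison of edgeR's test, as with all 9 libraries.

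Camta1 encodes a factor with a DNA-binding domain, so the stretches before 3 receptor genes are shown. Of the 6 members, 4 had promoter windows in a RefSeq table of build GRCm38.p6, 7 windows in all. Plant proteins of the CAMTA family bind elements with the core CGCG, which reads the same on both strands. Grm3, the member whose hairpin groups did not overlap, had 1 such core in the 250 bases before its listed start. The bases after that start were not found in a GENCODE M21 transcript of Grm3, nor were those of 1 of the 2 Grm7 windows, while those of the Grm2 and Grm8 windows were. Grm2, the abundant member with the widest spread, had 0. One of 3 Grm8 windows had 6, and the others of Grm8 and both of Grm7 had 0. Among 32851 windows of this length 33.8% held at least 1 core. All 3 genes lie on the minus strand, at chr5:9725353-9725602 for Grm3, chr9:106656110-106656359 for Grm2 and chr6:28135147-28135396 for Grm8. Capitals mark the core, and a match describes the letters alone.
Grm3: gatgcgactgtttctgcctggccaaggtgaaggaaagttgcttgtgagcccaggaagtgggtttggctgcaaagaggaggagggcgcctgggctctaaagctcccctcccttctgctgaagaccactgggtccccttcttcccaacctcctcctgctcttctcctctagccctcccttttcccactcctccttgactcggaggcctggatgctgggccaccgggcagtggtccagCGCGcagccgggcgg
Grm2: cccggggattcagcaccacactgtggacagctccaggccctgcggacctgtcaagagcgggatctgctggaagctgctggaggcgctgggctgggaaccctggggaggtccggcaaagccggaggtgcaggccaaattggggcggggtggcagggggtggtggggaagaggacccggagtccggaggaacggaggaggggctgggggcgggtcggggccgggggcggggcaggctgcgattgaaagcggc
Grm8: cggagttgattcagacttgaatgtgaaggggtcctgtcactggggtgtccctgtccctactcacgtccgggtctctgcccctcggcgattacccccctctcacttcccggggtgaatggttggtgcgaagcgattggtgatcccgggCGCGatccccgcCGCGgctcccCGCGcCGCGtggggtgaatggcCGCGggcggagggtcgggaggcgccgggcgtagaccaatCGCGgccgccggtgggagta

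The 6 transcripts spanned a wide range of levels, which were compared per kb of merged exon length. Grm5, the group I receptor, was the most abundant, with 28.8 ± 2.78 CPM per kb with shRNA A, 26.4 ± 0.915 with shRNA B and 29.0 ± 0.888 in controls (SD, n = 3 each). The group II pair followed. Grm2 had 20.2 ± 1.89 CPM per kb with shRNA A, 23.6 ± 8.08 with shRNA B and 21.0 ± 3.84 in controls. Grm3 had 22.6 ± 0.529 with shRNA A, 17.6 ± 1.91 with shRNA B and 20.8 ± 0.854 in controls. In controls Grm2 and Grm3 did not differ beyond their spread. With shRNA A all 3 Grm3 values, from 22.0 CPM per kb, lay above all 3 Grm2 values, up to 21.5. With the longest coding transcript as the length, 4.71 kb for Grm2 in place of 4.89 kb, the values of these genes overlapped there. With shRNA B the range of Grm2, 14.7 to 30.6, covered those of both Grm3 and Grm5. Grm7, a presynaptic group III receptor, came next with 8.71 ± 0.101 CPM per kb with shRNA A, 9.41 ± 1.10 with shRNA B and 9.26 ± 0.429 in controls. Grm4 was lower, with 3.09 ± 0.785 with shRNA A, 2.23 ± 0.743 with shRNA B and 1.99 ± 0.255 in controls. Grm8 was the rarest, with 0.487 ± 0.134 with shRNA A, 0.339 ± 0.155 with shRNA B and 0.356 ± 0.0821 in controls. The ranges of Grm7, Grm4 and Grm8 did not touch in any group. With the longest coding transcript as the length the control order was unchanged, with 37.0, 21.9, 20.8, 13.0, 2.58 and 0.913 CPM per kb from Grm5 down to Grm8. Among all genes tested, the mean level per kb of Grm5 stood at the percentile 88.7 and that of Grm4 at 34.5, below most genes.

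Corrected for length, the summed level of the 6 transcripts was similar in most libraries and its make-up was not. It was 83.2, 84.7 and 83.5 CPM per kb with shRNA A, 82.5, 84.7 and 71.5 with shRNA B, and 84.2, 78.4 and 84.7 in controls. Grm2 and Grm3 together held 45.7% to 54.5% of it in every library. Grm2 alone held 21.6%, 25.4% and 25.2% with shRNA A, 30.8%, 36.1% and 20.6% with shRNA B, and 24.6%, 22.2% and 29.6% in controls. The ratio of Grm2 to Grm3 per kb was 0.817 to 0.932 with shRNA A, 0.820 to 1.97 with shRNA B and 0.833 to 1.26 in controls. The lowest and the highest Grm2 share both came from shRNA B libraries.

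**Figure D1:**
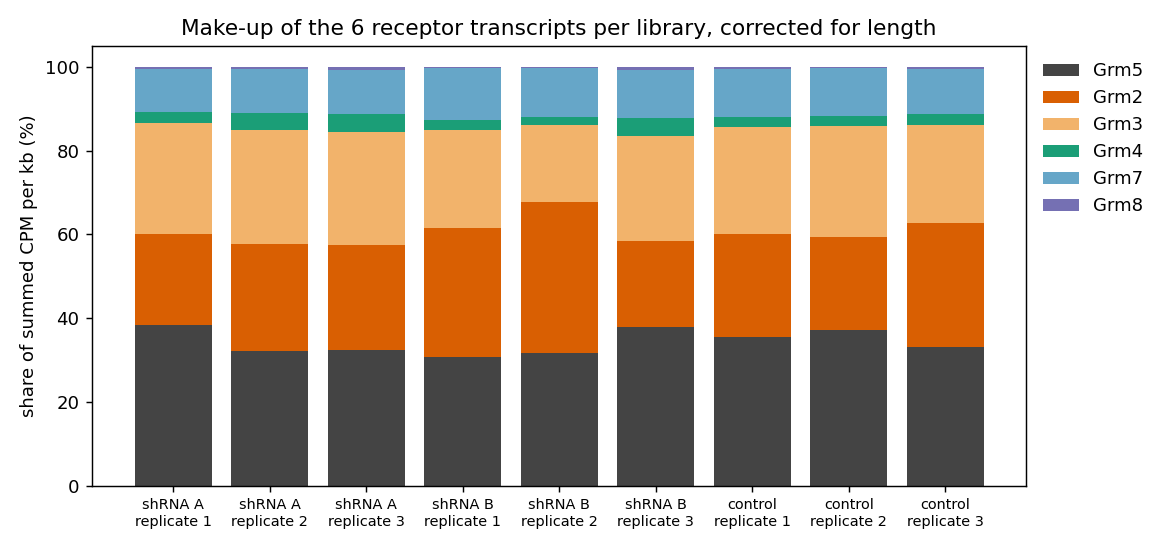
Stacked bars give, for each of the 9 libraries, the share of each receptor transcript in the summed CPM per kb of the 6, in percent. Grm2 ranges from 20.6% in shRNA B replicate 3 to 36.1% in shRNA B replicate 2.

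The comparison of each hairpin with the control asks which transcripts change when Camta1 is lowered. None of the 6 receptor genes passed edgeR's quasi-likelihood test at an adjusted p under 0.05 with either hairpin. Camta1, the target itself, did not pass it either. Its log2 fold changes were -1.007 with shRNA A and -1.025 with shRNA B (edgeR adjusted p = 0.388 and 0.0776). A change of that size failed this test at the SE of Camta1, 0.216 with shRNA A. Not passing it does not show that a receptor gene was unchanged. The SE with shRNA A was 0.25 to 0.32 for Grm2, Grm4 and Grm8 and 0.075 to 0.080 for Grm3, Grm5 and Grm7. The size of change that could go uncalled therefore differs between members. Over all 16438 genes 0.0243% passed with shRNA A, all of them higher, and 1.02% with shRNA B, 0.779% higher and 0.237% lower. At an unadjusted p under 0.05, 1 of the 6 stood out with shRNA A, Grm4, against 6.9% of all genes, and 1 with shRNA B, Grm3, against 12.8%. DESeq2 and limma-voom called 0 of the 6 in either contrast. With both hairpins pooled against the control, 0 of 6 passed in any of the 3 tools or had an unadjusted p under 0.05 in edgeR, where 0.0973% of all genes passed, 0.073% higher and 0.0243% lower, and 10.4% had such a p. The median log2 fold change of the 6 was 0.05 with shRNA A, -0.02 with shRNA B and 0.01 pooled, with 3 of 6 positive each time. The median over all genes was below 0.01 in each. The same controls served all 3 contrasts.

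**Figure D2:**
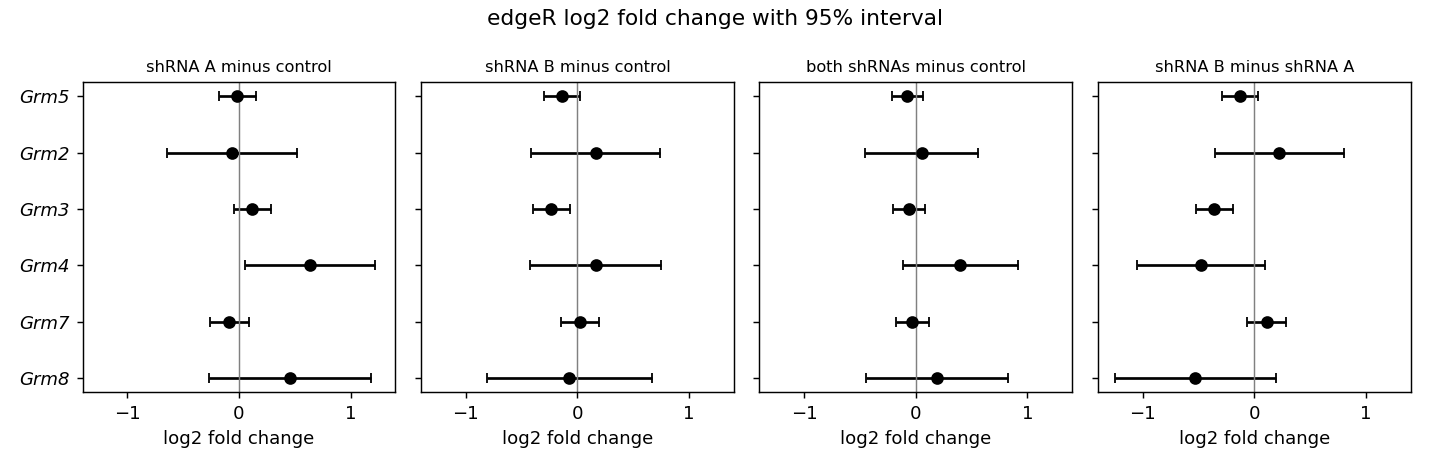
Points are edgeR log2 fold changes of each receptor gene and bars their 95% intervals, for shRNA A, shRNA B and both against the control and for shRNA B against shRNA A. The interval of Grm3 excludes 0 for shRNA B against the control and against shRNA A, and that of Grm4 for shRNA A, before adjustment over genes.

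Grm5 (ENSMUSG00000049583, chromosome 7), the main Gq-coupled receptor here, had 328, 280 and 277 CPM with shRNA A, 260, 274 and 277 CPM with shRNA B, and 306, 299 and 288 CPM in controls. All 3 shRNA B libraries lay below all controls, while the shRNA A values spanned the control range. The log2 fold change was -0.01 ± 0.075 (SE, 95% interval -0.18 to 0.15) with shRNA A and -0.14 ± 0.075 (-0.30 to 0.02) with shRNA B, with edgeR adjusted p = 0.977 and 0.478. Values below 0.812 of the control level lay outside both intervals. Summed CA1 markers, 8 of 9 with a row, were highest in shRNA A replicate 1, at 1181 CPM, and lowest in shRNA B replicate 1, at 605 CPM, the libraries with the highest and lowest Grm5, while shRNA B replicate 3 had 1146 CPM of these markers with 277 CPM of Grm5. By the mean log2 level per gene shRNA B replicate 3 was highest, at 0.23, above shRNA A replicate 1 at 0.22. Control replicate 1, with 306 CPM of Grm5, had 802 CPM of the CA1 markers and a mean log2 level of 0.12. Pan-neuronal markers, 10 of 10 with a row, were all negative with each hairpin. Their median log2 fold changes were -0.114 with shRNA A and -0.105 with shRNA B. edgeR called 0 of them, with 2 and 1 at an unadjusted p under 0.05. The part of these markers in the Grm5 values was not tested. In such bulk tissue, fewer cells of a type and less RNA per cell cannot be told apart.

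Grm2 (ENSMUSG00000023192, chromosome 9), the granule cell autoreceptor, varied most among the abundant members. It had 88.1, 105 and 103 CPM with shRNA A, 124, 150 and 72.1 CPM with shRNA B, and 101.5, 85.0 and 122.5 CPM in controls. The groups overlapped fully, and shRNA B held both the highest and the lowest library. The log2 fold changes were -0.06 ± 0.25 (SE, 95% interval -0.64 to 0.52) with shRNA A and 0.16 ± 0.25 (-0.42 to 0.74) with shRNA B (edgeR adjusted p = 0.972 and 0.852). Without shRNA B replicate 2 the second was -0.07. Its biological coefficient of variation was 21.3%, above that of 94.3% of all genes tested, and the intervals reached from a fold of 0.641 with shRNA A to 1.67 with shRNA B.

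Dentate granule cell markers moved with Grm2 from library to library. All 10 had a row and none was at 0. They summed to 821, 862 and 758 CPM with shRNA A, to 953, 961 and 592 CPM with shRNA B, and to 885, 767 and 1053 CPM in controls. Against the controls 8 of the 10 were negative with each hairpin, with median log2 fold changes of -0.195 with shRNA A and -0.178 with shRNA B. Grm2 had -0.06 and 0.16, so with shRNA B most of these markers went the other way. The 3 libraries with the highest Grm2, shRNA B replicates 1 and 2 and control replicate 3, also had the highest granule cell sums, and shRNA B replicate 3 was lowest in both. Of 13 marker lists, 1 shared its 3 highest libraries with Grm2, by the sum and by the mean log2 level per gene alike. This pattern was noticed after the values were seen, and its part in the Grm2 spread was not tested.

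**Figure D3:**
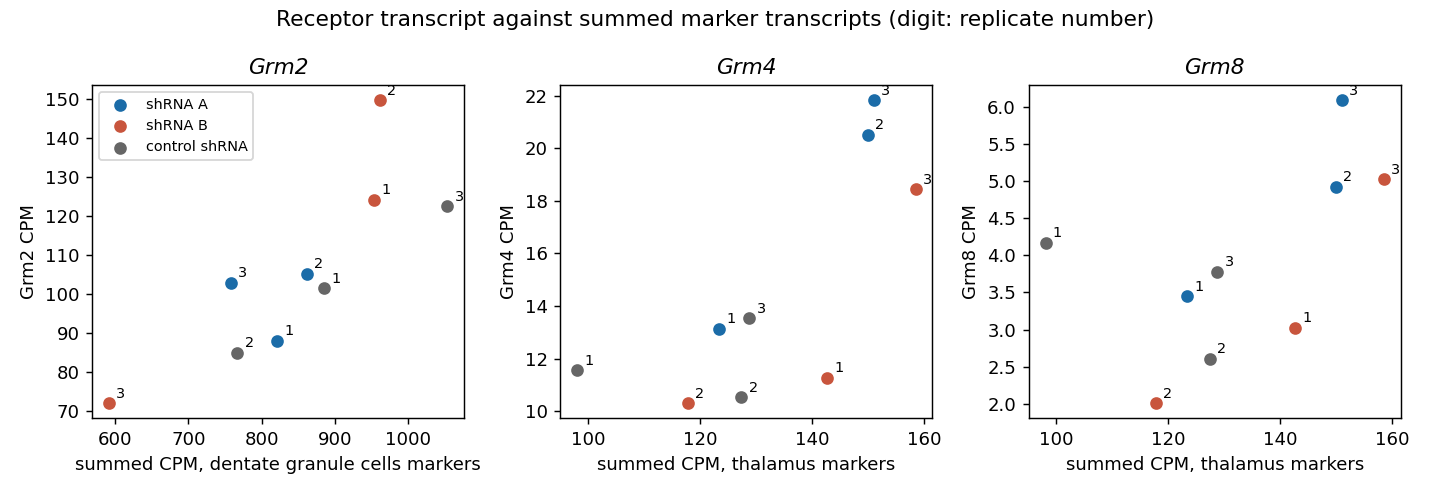
Each point is a library, with its replicate number, and shows the CPM of Grm2 against summed dentate granule cell markers, and of Grm4 and Grm8 against summed thalamus markers, in CPM. Grm2 and the granule cell sum are both lowest in shRNA B replicate 3, and shRNA A replicates 2 and 3 and shRNA B replicate 3 lie highest for Grm4, Grm8 and the thalamus sum.

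Grm3 (ENSMUSG00000003974, chromosome 5), the group II receptor shared by glia and neurons, was the member whose groups separated. It had 67.2, 70.4 and 68.7 CPM with shRNA A, 59.0, 47.45 and 54.7 CPM with shRNA B, and 65.7, 63.6 and 60.5 CPM in controls. Every shRNA A library lay above every control and every shRNA B library below, an arrangement of either sign that 0.164% of all genes showed. The log2 fold change was 0.12 ± 0.076 (SE, 95% interval -0.05 to 0.29) with shRNA A and -0.24 ± 0.077 (-0.40 to -0.07) with shRNA B, with edgeR adjusted p = 0.777 and 0.213. Pooling the hairpins gave -0.06 ± 0.066. All 18 alternative settings kept the sign of each hairpin's value, and none called it.

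Compared directly, Grm3 averaged 53.7 ± 5.83 CPM with shRNA B and 68.8 ± 1.61 CPM with shRNA A (SD, n = 3 each), a log2 fold change of -0.36 ± 0.077 (SE, 95% interval -0.52 to -0.19). Its unadjusted p of 0.00053 ranked at place 47 of 16438, and edgeR's adjusted p was 0.175, over a range of 0.0136 to 0.496 in the alternatives. The lower end was DESeq2, which called it. Grm3 was the 1 member with such an unadjusted p under 0.05, against 9.34% of all genes, and edgeR called 0% of all genes in this contrast. The two-sided exact permutation p with 3 libraries a side was 0.1, the smallest possible there. In the authors' deposited table a likelihood ratio test over the 3 groups gave Grm3 an adjusted p of 0.0149, with log2 fold changes of 0.12 with shRNA A and -0.24 with shRNA B. That test called 2.51% of the genes with an adjusted p there, and of the 6 members Grm3 alone. An edgeR test over the 3 groups, added after the data were seen, gave Grm3 an adjusted p of 0.128 and called 0.475% of genes.

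**Figure D4:**
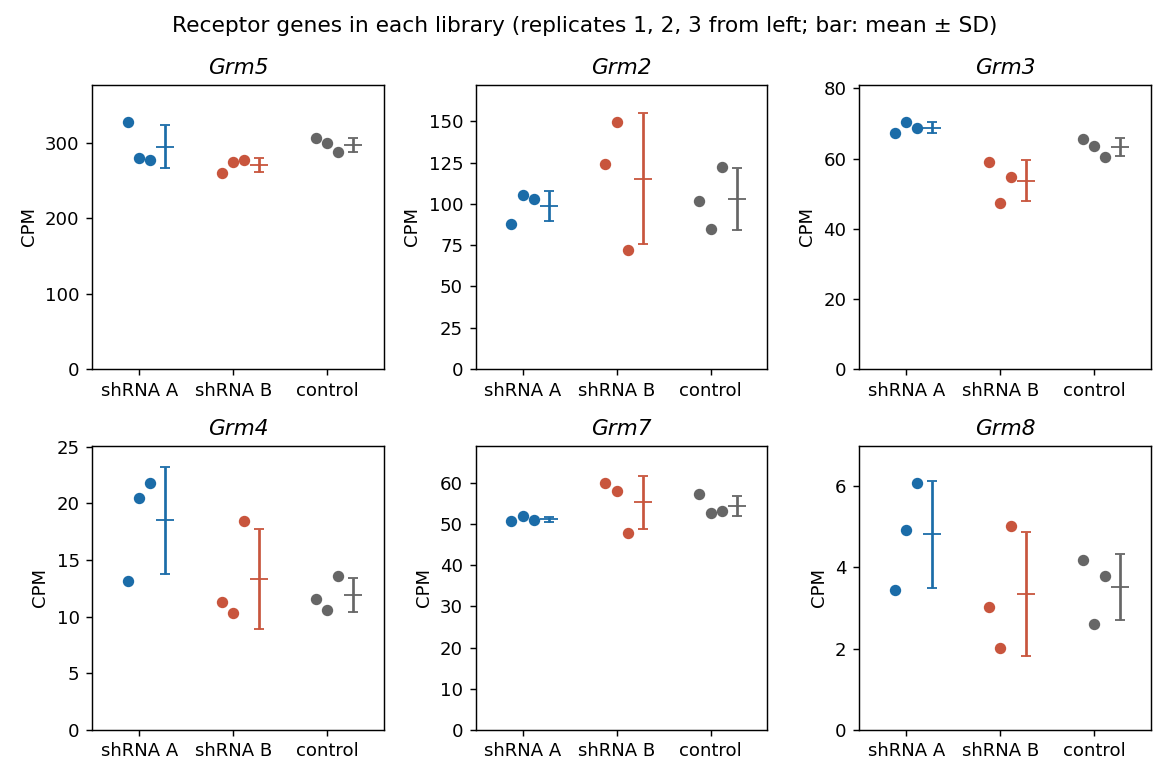
Points are the CPM of each library by group, with the mean and SD beside them, and each panel starts at 0. Grm3 lies between 47.45 and 59.0 CPM with shRNA B, between 67.2 and 70.4 with shRNA A and between 60.5 and 65.7 in controls, while the groups of Grm2, Grm4 and Grm8 overlap.

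Astrocyte markers, 12 of 12 with a row and none at 0, summed to 4164 to 4659 CPM with shRNA A, 4039 to 4437 CPM with shRNA B and 4104 to 4508 CPM in controls, so these ranges overlapped where those of Grm3 did not. With shRNA A, 3 of the 12 were negative and 0 had an unadjusted p under 0.05 in edgeR. With shRNA B, 8 of the 12 were negative, with a median of -0.02, and 5 had such a p. Between the hairpins 7 were negative and 5 had such a p. edgeR called 1 of them with shRNA B, Aldh1l1, a folate enzyme of astrocytes, which rose by a log2 fold change of 0.47 ± 0.070 (adjusted p = 0.0137), and 0 in the other contrasts. Slc1a2, a glutamate transporter and the most abundant of the list, had -0.28 ± 0.10 with shRNA B (edgeR adjusted p = 0.282, unadjusted p = 0.0191), the direction of Grm3. Microglia markers, 10 of 10 with a row, separated by group in summed CPM, with sums of 584 to 662 CPM with shRNA A, 670 to 751 CPM with shRNA B and 546 to 581 CPM in controls. By the mean log2 level per gene the hairpin groups touched, with -0.11 to 0.086 with shRNA A and 0.085 to 0.26 with shRNA B, and the controls lay lower, at -0.24 to -0.13. edgeR called 4 of them with shRNA B, all higher, and 0 with shRNA A, where 3 had an unadjusted p under 0.05. Their part in the Grm3 difference was not tested.

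Grm4 (ENSMUSG00000063239, chromosome 17), a group III receptor at release sites, had 13.1, 20.5 and 21.8 CPM with shRNA A, 11.3, 10.3 and 18.4 CPM with shRNA B, and 11.6, 10.5 and 13.5 CPM in controls. The log2 fold change with shRNA A was 0.64 ± 0.25 (SE, 95% interval 0.06 to 1.22), with an unadjusted p of 0.0346 and an edgeR adjusted p of 0.72. With shRNA B it was 0.16 ± 0.26, and -0.14 without shRNA B replicate 3. The groups overlapped in both contrasts. shRNA A replicate 1 lay within the control range, and the shRNA B values spanned that range, from 10.3 to 18.4 CPM. shRNA B replicate 3 lay far above the other 2 of its group. Grm8 (ENSMUSG00000024211, chromosome 6), its close relative, rested on 64 to 186 reads a library. It had 3.45, 4.92 and 6.09 CPM with shRNA A, 3.03, 2.01 and 5.02 CPM with shRNA B, and 4.17, 2.61 and 3.78 CPM in controls. The log2 fold changes were 0.45 ± 0.32 with shRNA A and -0.07 ± 0.33 with shRNA B (edgeR adjusted p = 0.811 and 0.959). Their coefficients of variation, 21.2% for Grm4 and 26.9% for Grm8, were above those of 94.2% and 97.6% of all genes.

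Grm4 and Grm8 shared their 3 highest libraries, shRNA A replicates 2 and 3 and shRNA B replicate 3. By summed CPM 4 of the 13 marker lists shared these libraries too. By the mean log2 level per gene, relative to all libraries, 3 of those 4 still did and the interneuron list joined them, while the neocortex list did not: shRNA B replicate 3 then lay below every control, at -0.02 against 0.03 to 0.08. Neocortex markers, 8 of 8 with a row and several of them also known from hippocampal cells, summed to 192, 221.5 and 224 CPM with shRNA A, 180, 185.5 and 211.5 CPM with shRNA B, and 199, 198 and 201 CPM in controls. Thalamus markers summed to 123, 150 and 151 CPM with shRNA A, 143, 118 and 158.5 CPM with shRNA B, and 98.1, 127 and 129 CPM in controls. Gene by gene against the controls, 6 of these 9 markers were positive and 3 negative with shRNA A (median 0.03). With shRNA B 3 were positive and 6 negative (median -0.08). Prkcd, the most abundant of them, averaged 43.5 ± 11.5, 58.0 ± 12.6 and 39.5 ± 12.2 CPM with shRNA A, with shRNA B and in controls. The other lists sharing these libraries by the sum were those of oligodendrocytes and of their precursors. Oligodendrocyte sums were 4412 to 6917 CPM with shRNA A, 3545 to 7244 CPM with shRNA B and 3137 to 5111 CPM in controls. The precursor sums were 452 to 568 CPM with shRNA A, 417 to 531.5 CPM with shRNA B and 394 to 452 CPM in controls. None of the 9 thalamus, 10 oligodendrocyte or 8 precursor markers was at 0. The part of these tissues and cells in the Grm4 and Grm8 values was not tested.

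Grm7 (ENSMUSG00000056755, chromosome 6), the receptor held at the release site itself, was the steadiest of group III. It had 50.8, 52.0 and 51.1 CPM with shRNA A, 60.1, 58.0 and 48.0 CPM with shRNA B, and 57.4, 52.7 and 53.3 CPM in controls. With shRNA A all 3 libraries lay below all controls, by a log2 fold change of -0.09 ± 0.080 (SE, 95% interval -0.26 to 0.09, edgeR adjusted p = 0.853). With shRNA B the groups overlapped and the value was 0.02 ± 0.080 (-0.15 to 0.20, adjusted p = 0.937), so folds below 0.834 lay outside both intervals. Groups without overlap were found for 2 of the 6 genes with shRNA A, Grm3 and Grm7, where 12.5% of all genes had none, 6.84% higher and 5.65% lower. With shRNA B they were found for Grm3 and Grm5, where 18.1% had none, 9.27% higher and 8.88% lower. Between the hairpins they were found for Grm3, where 14.2% had none, 7.29% higher and 6.95% lower with shRNA B. With both hairpins pooled 0 of the 6 were free of overlap with the controls, where 4.5% of all genes were, 2.51% higher and 2% lower. In GENCODE M21 antisense genes overlap exons of Grm2 by 470 bases and of Grm7 by 130 bases. The libraries kept no strand, so reads there cannot be assigned to a strand, and how they were counted is not known here. The other 4 members had no such overlap of 100 bases or more.

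Between the hairpins, the 5 members besides Grm3 had edgeR adjusted p between 0.619 and 0.841. Grm2 was 0.22 ± 0.25 (SE), Grm4 -0.47 ± 0.25, Grm5 -0.12 ± 0.075, Grm7 0.11 ± 0.080 and Grm8 -0.53 ± 0.32 on the log2 scale, shRNA B minus shRNA A. The median size of the log2 difference over the 6 was 0.29, beside 0.091 over all genes. It was 0.10 beside 0.087 with shRNA A, 0.15 beside 0.10 with shRNA B, and 0.067 beside 0.082 with both pooled, where the 6 were below all genes. Grm2, Grm4 and Grm8 had coefficients of variation above those of 94.3%, 94.2% and 97.6% of all genes. These median sizes take no account of such spread and were not tested.

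The levels of the members followed each other in part across the 9 libraries, described here by Pearson's r of log2 CPM with no test, since the libraries share groups and dissection. Grm4 and Grm8 had r = 0.89 and Grm2 and Grm7 r = 0.77, while Grm4 and Grm7 had r = -0.69. Among 10000 named genes whose mean reached 10 CPM, the closest to Grm8 were Nxph3, which encodes neurexophilin 3, with r = 0.987, and the zinc finger gene Tshz2, with r = 0.98. Tshz2 was also among the closest pair to Grm4, with r = 0.939, after Ddrgk1 with r = 0.953. The closest to Grm2 was Dusp14 (r = 0.959), and the closest to Grm3 were Slu7 (r = 0.98) and Pgam5 (r = 0.968). Those of Grm5 were Ufl1 (r = 0.944) and Atp1b1 (r = 0.935), and those of Grm7 Derl1 (r = 0.926) and Umps (r = 0.923). All of these are the highest r in a search of 10000 genes over 9 libraries. Whether they exceed what such a search gives for unrelated genes was not tested.

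Genes that work with these receptors were followed in 8 lists with 136 distinct genes tested. With shRNA A edgeR and limma-voom called 0 of the 136 and DESeq2, which kept 138, called 1, with 13, or 9.56%, at an unadjusted p under 0.05 in edgeR, against 6.9% of all genes. With shRNA B edgeR called 1, DESeq2 6 and limma-voom 0, with 23, or 16.9%, at such a p, against 12.8% of all genes. Between the hairpins edgeR and limma-voom called 0 and DESeq2 3, with 15, or 11%, at such a p, against 9.34% of all genes. With both hairpins pooled edgeR and limma-voom called 0 and DESeq2 3, with 15, or 11%, at such a p, against 10.4% of all genes. Over all genes DESeq2 called 41 with shRNA A, 380 with shRNA B, 225 pooled and 121 between the hairpins. The number of genes that DESeq2 tested is not given here, so its calls among the partners have no share over all genes beside them.

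Of 20 scaffold and partner genes, 13 were positive with shRNA A and 11 with shRNA B, with medians of 0.05 and 0.003, and 0 passed in any of the 3 tools, with 2 and 1 at an unadjusted p under 0.05. Homer2, a scaffold of group I receptors, had 66.9 ± 3.82 CPM with shRNA A, 60.9 ± 3.54 CPM with shRNA B and 52.6 ± 8.19 CPM in controls. Its log2 fold changes were 0.35 ± 0.10 and 0.21 ± 0.10 (edgeR adjusted p = 0.506 and 0.402). Grip1, a PDZ scaffold of synaptic receptors, had a log2 fold change of -0.14 ± 0.079 with shRNA A and -0.28 ± 0.079 with shRNA B (edgeR adjusted p = 0.757 and 0.133). Neurochondrin, Ncdn, which binds group I receptors, was the most abundant with 3177 ± 143, 3315 ± 143 and 3408 ± 399 CPM with shRNA A, with shRNA B and in controls.

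In the Gq and phospholipase C list, 13 of 18 genes were positive with shRNA A and 7 with shRNA B, with medians of 0.04 and -0.02. edgeR called 0, with 2 and 4 at an unadjusted p under 0.05. Cnr1, the cannabinoid receptor that answers lipids released after group I activation, had 153 ± 3.94, 156 ± 11.2 and 192 ± 22.0 CPM with shRNA A, with shRNA B and in controls. Its log2 fold changes were -0.33 ± 0.086 and -0.31 ± 0.086 (edgeR adjusted p = 0.434 and 0.138), and DESeq2 called the second (adjusted p = 0.0445). Plcb4, a phospholipase C of this pathway, had 0.43 ± 0.11 with shRNA A and 0.29 ± 0.11 with shRNA B (edgeR adjusted p = 0.388 and 0.283).

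In the Gi/o list, 10 of 20 genes were negative with shRNA A and 16 with shRNA B, with medians of -0.01 and -0.07, and edgeR called 0, with 1 and 4 at an unadjusted p under 0.05. Kcnj9, a subunit of the potassium channels that Gi/o proteins open, had 75.0 ± 4.33 CPM with shRNA B, against 96.9 ± 8.15 CPM with shRNA A and 93.8 ± 6.71 CPM in controls. The log2 difference between the hairpins was -0.37 ± 0.079 (edgeR adjusted p = 0.175, DESeq2 adjusted p = 0.00783). Adcy8, a calcium-stimulated adenylyl cyclase, had 18.98 ± 0.767 CPM with shRNA B, against 26.4 ± 1.60 CPM with shRNA A and 24.7 ± 3.36 CPM in controls, with -0.48 ± 0.095 between the hairpins (edgeR adjusted p = 0.148, DESeq2 adjusted p = 0.00563).

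Among 17 genes of receptor shut-off, edgeR and DESeq2 called 0 with either hairpin, with 0 and 2 at an unadjusted p under 0.05 in edgeR and medians of -0.02 and -0.05. Rgs4, which speeds the return of G proteins to rest, had 86.3 ± 8.64 CPM with shRNA B, 107 ± 1.14 CPM with shRNA A and 107 ± 12.3 CPM in controls (log2 fold change against control -0.31 ± 0.091, edgeR adjusted p = 0.158). Of 17 genes of receptor-driven translation and long-term depression 0 were called by edgeR, with 2 and 3 at an unadjusted p under 0.05 and medians of -0.02 and -0.06.

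The list on glutamate and on NAAG, the dipeptide N-acetylaspartylglutamate that activates Grm3, held 18 genes, with 10 negative with shRNA A and 14 with shRNA B and medians of -0.02 and -0.04. edgeR called 0, with 4 and 6 at an unadjusted p under 0.05. Rimkla, which makes NAAG, had 12.1 ± 1.16 CPM with shRNA B, against 16.0 ± 0.760 CPM with shRNA A and 15.3 ± 0.416 CPM in controls. Between the hairpins its log2 difference was -0.40 ± 0.086 (edgeR adjusted p = 0.175, DESeq2 adjusted p = 0.0312), and edgeR called it without shRNA B replicate 3 (adjusted p = 0.0345).

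Ionotropic glutamate receptor subunits gave a close comparison. Of 18, 10 were negative with shRNA A and 14 with shRNA B, with medians of -0.003 and -0.13, and edgeR called 0, with 1 at an unadjusted p under 0.05 each time. Grik4, a kainate receptor subunit, had -0.44 ± 0.096 with shRNA A (edgeR adjusted p = 0.33, DESeq2 adjusted p = 0.0219). With shRNA B it had -0.125 ± 0.095 (edgeR adjusted p = 0.649). Of 8 tested GABA-B and other class C receptor genes, edgeR called 0 with shRNA A, where the median was 0.02 and 1 had an unadjusted p under 0.05. It called 1 with shRNA B, where the median was -0.04.

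**Figure D5:**
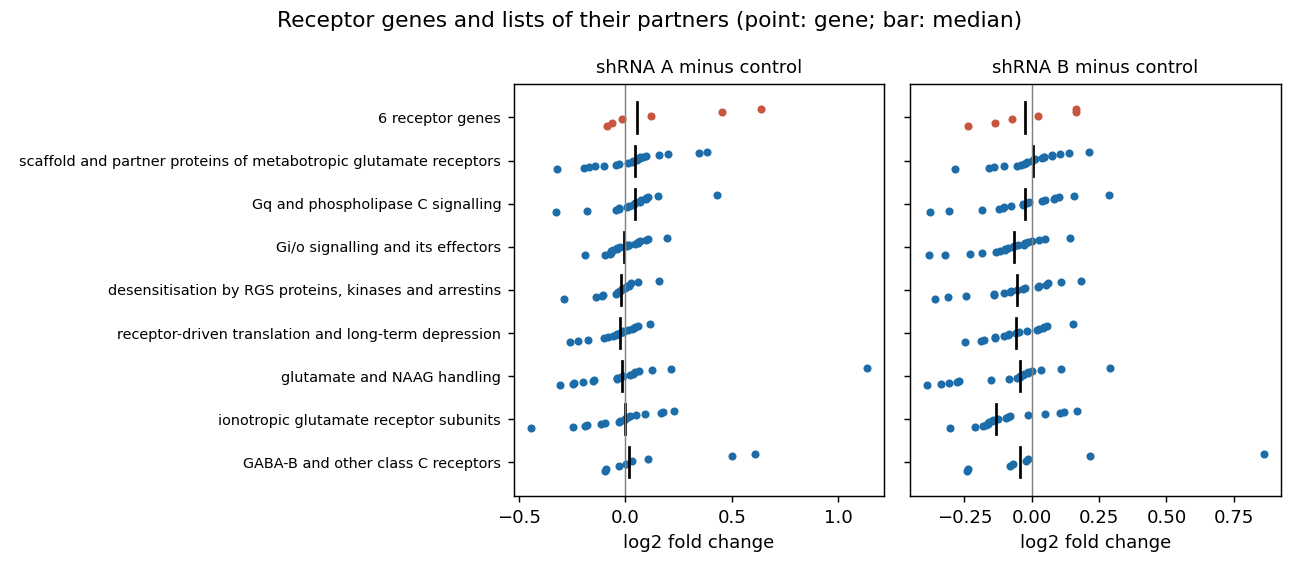
Points are the edgeR log2 fold changes of the 6 receptor genes and of the genes in 8 lists of partners and related receptors, with a bar at each list's median, for shRNA A and for shRNA B against the control. The medians lie between -0.13 and 0.05.

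Grm6, the retinal member of group III, had 1 read in all libraries together and was not tested.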

How the data were processed

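Transcript levels were measured by polyA RNA-seq of 1.5 µg total RNA per library, without strand, in 9 libraries. Raw read counts per Ensembl identifier, as whole numbers, are what the authors deposited. Tools and genome named in the submitters' processing notes are mm9, R 3.1.1, DESeq2 1.4.5, HTSeq 0.6.1, SAMtools 0.1.19 and TopHat 1.4.1, and the sources used here name no gene annotation. The authors' deposited table also holds a mean normalized signal, log2 fold changes, their standard errors, the statistic (score) of a likelihood ratio test over the groups, and its p-values, per the file headers. Every per-sample column matched a label.

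Counts were analysed in edgeR 4.0.16 (R 4.3.3) with filterByExpr, TMM scaling and the robust quasi-likelihood test on all 9 libraries, with Benjamini-Hochberg adjustment over 16438 genes and a threshold of 0.05, after tests on simulated data. DESeq2 1.42.0, limma 3.58.1, other scalings and filters, a replicate block and leaving out each library were alternatives. The SE is the log2 fold change divided by the root of F, and 95% intervals use its degrees of freedom. All tests are two-sided. Exon lengths came from GENCODE M21 (GRCm38) and served for levels per kb alone. Likeness used log2 CPM with a prior count of 1.

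The members, the lists and the named-gene rule were chosen with earlier results of these data known. The rule named, from each list, genes past the threshold, otherwise the 2 with the smallest p, and the most abundant, and the text gives a part of them. No pair of libraries of a group agreed within counting noise (chi-square per degree of freedom 7.9 to 20.9). The design text is the source for 3 separate animals a group. Of the 31804 genes, 8730 had 0 counts throughout. Some genes of the lists are not reported here.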

Additional observations from a re-analysis of the deposited data

Results flagged for a closer look

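Grm3 was higher than every control in the 3 shRNA A libraries and lower than every control in the 3 shRNA B libraries, so the hairpins against the same target lay on opposite sides of the control. The log2 difference of shRNA B minus shRNA A was -0.36, tested directly, with an edgeR adjusted p of 0.175 that does not pass over all genes. Over all genes tested, 0.164% had their hairpin groups on opposite sides of the controls in this way. Groups of 3 are too small for a test of single outlying libraries.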

How the results depend on the processing

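With 17 or 18 alternatives for each member and contrast, the 6 receptor genes were called in none but 1: DESeq2 called Grm3 for shRNA B minus shRNA A, 1 receptor gene in place of 0. Signs of small values were not stable when single libraries were left out in turn. The log2 value of Grm2 then ran from -0.19 to 0.078 with shRNA A, -0.067 to 0.41 with shRNA B, -0.073 to 0.19 pooled and -0.0065 to 0.47 between the hairpins. It turned without shRNA B replicate 2 in the last 3, without control replicate 2 pooled, and without control replicate 3 or shRNA A replicate 1 with shRNA A. Grm4 with shRNA B ran from -0.14 to 0.31, turning without shRNA B replicate 3. Grm5 with shRNA A ran from -0.096 to 0.030, turning without control replicate 1 or shRNA A replicates 2 or 3. Grm7 ran from -0.039 to 0.12 with shRNA B, turning without control replicate 2 or shRNA B replicates 1 or 2, and from -0.063 to 0.015 pooled, turning without control replicate 1 or shRNA B replicate 3. Grm8 ran from -0.47 to 0.18 with shRNA B, turning without control replicate 1 or shRNA B replicate 2, and from -0.0079 to 0.33 pooled, turning without shRNA B replicate 3. Camta1 between the hairpins ran from -0.19 to 0.20, turning without shRNA A replicates 1 or 3 or shRNA B replicate 2.

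The pooled Camta1 value, -1.02 (edgeR adjusted p = 0.107), passed with DESeq2 (-1.02), with robust estimation off (-1.02), with a replicate block (-1.06) and without shRNA B replicate 2 (-0.91), in a leave-one-out range of -1.10 to -0.91. Counts over all genes moved more. With shRNA A edgeR called 4, against 41 by DESeq2, 0 by limma-voom, 9 with no low-count filter, 18 with the compared groups alone, 2 with robust estimation off and 0 to 10 leaving out a library. With shRNA B it called 167, against 380 by DESeq2, 95 by limma-voom, 42 with the compared groups alone and 13 to 217 leaving out a library. Pooled it called 16, against 225 by DESeq2, 67 with no filter and 1 to 52 leaving out a library. Between the hairpins it called 0, against 121 by DESeq2, 21 with no filter and 0 to 110 leaving out a library. The cause was not tested. Whether the numbers in the labels pair the libraries is not stated. Same-numbered libraries had deviation correlations of -0.12 to 0.34. Differently numbered libraries were not compared, so these values cannot decide it. With the replicate block edgeR called 31 pooled and 1 between the hairpins. Grm8, at 64 reads in 1 library, is the member that depth limits most.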
